A study of Homo sapiens with 16 samples.

Results

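Krüppel-like factors (KLFs) are transcription factors that bind GC-rich and CACCC-type DNA elements through zinc fingers at the end of the protein. Described here are 9 of the KLF genes on the array, KLF2, KLF3, KLF4, KLF5, KLF6, KLF7, KLF10, KLF11 and KLF13, and every row carrying one of these symbols was taken and kept separate. This gave 11 rows of the 20589 rows in the intensity table, and 9 of its 18190 gene symbols. KLF6 and KLF10 had 2 rows each. The RNA came from MCF10A, a nontransformed human mammary epithelial cell line that needs insulin and EGF to grow in serum-free medium. Parallel cultures received 1 µM of CP724,714, a small molecule inhibitor of the HER2 kinase, and RNA was taken every 3 h from 0 to 45 h. Each of the 16 time points, the untreated 0 h culture included, was measured once on an Illumina human Ref8v2 array. All cultures shared a medium with insulin, EGF and hydrocortisone that was renewed when treatment began, and no culture without the inhibitor after 0 h was analysed here. The inhibitor, the fresh medium and time in culture therefore cannot be told apart.

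The family falls into groups that differ in the proteins they recruit. KLF2, KLF4, KLF5, KLF6 and KLF7 mostly activate transcription with histone acetyltransferases, KLF3 represses through the corepressor CtBP, and KLF10, KLF11 and KLF13 repress through SIN3A. In epithelia, KLF4 is known for differentiation and barrier formation and KLF5 for proliferation of basal cells. KLF6 is a widely expressed member that responds to injury and growth factors, and KLF2 and KLF4 are classic targets of the MEK5-ERK5 kinase route and its MEF2 factors. KLF10 and KLF11 were first described as early genes of TGF-beta signalling.

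KLF2, KLF4 and KLF6 carried the falls of the first hours described below, so the DNA before their start sites is shown. RefSeq promoter windows (GRCh38.p14) matched 7 of the 9 genes, and the 250 bases before the start are printed 5′ to 3′ on the gene's strand. They are chr19:16324576-16324825 on the plus strand for KLF2, chr9:107489770-107490019 on the minus strand for KLF4, and chr10:3785210-3785459 on the minus strand for KLF6. Capitals mark GC boxes (GGGCGG or its complement, a site type that KLF and SP proteins bind) and, in KLF2, 1 match to the MEF2 consensus site.
KLF2: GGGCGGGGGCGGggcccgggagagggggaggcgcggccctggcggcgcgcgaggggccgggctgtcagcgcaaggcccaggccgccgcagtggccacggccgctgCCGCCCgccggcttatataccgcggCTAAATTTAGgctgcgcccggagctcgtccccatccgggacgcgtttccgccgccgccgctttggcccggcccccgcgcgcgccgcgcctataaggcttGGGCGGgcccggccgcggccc
KLF4: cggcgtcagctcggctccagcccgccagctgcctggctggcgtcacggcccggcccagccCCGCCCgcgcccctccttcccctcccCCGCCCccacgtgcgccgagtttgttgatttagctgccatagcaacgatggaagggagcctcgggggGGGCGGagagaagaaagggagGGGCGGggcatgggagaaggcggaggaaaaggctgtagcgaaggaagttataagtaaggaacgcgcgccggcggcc
KLF6: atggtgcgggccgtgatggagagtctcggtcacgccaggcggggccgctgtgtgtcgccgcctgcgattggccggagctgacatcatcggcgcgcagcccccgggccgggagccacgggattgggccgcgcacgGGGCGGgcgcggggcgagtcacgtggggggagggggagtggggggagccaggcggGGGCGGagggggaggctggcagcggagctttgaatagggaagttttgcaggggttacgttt
The KLF2 and KLF4 windows held 4 GC boxes each and the KLF6 window held 2. At least 1 GC box on either strand was present in 42.6% of all 35116 promoter windows of the same length. The MEF2 match of KLF2, a site type present in 1.75% of all windows, lay 120 to 111 bases before the start. The E-box CACGTG, present in 6.34% of all windows, occurred once in KLF4, 157 to 152 bases before the start, and once in KLF6, 97 to 92 bases before it. The letters CACCC, present in 54.7% of all windows on either strand, were in none of the 3 windows. No match overlapped another, and a match describes letters in the DNA and not binding. Matches in the windows of the other members are not shown, and a tie between matches and falls was not tested.

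The median deposited intensity of the arrays was 210 to 254, and 50.1 to 52.9% of rows were above background (detection p under 0.05) on each array. The arrays up to 21 h and from 24 h on differed without overlap. The median was 242.8 to 253.9 in the earlier part and 210.4 to 242.6 in the later part. The inferred mean of the negative controls was 187.8 to 198.6 in the earlier part and 165.8 to 184.9 in the later part. The cells were checked against marker genes. Of 9 basal epithelial genes, 6 were above background on all 16 arrays, among them KRT5 and KRT17. The basal gene TP73L was above background on 10 arrays and KRT14 on 1. LAMB3 was so on 4 arrays in ILMN_1848 and on 0 in ILMN_1092, though the latter had a mean log2 intensity of 11.24. Of 7 luminal genes, 5 were above background on all arrays, though ESR1 was on none. No fibroblast gene of 6 and no endothelial gene of 4 was above background on all arrays. COL1A1, COL1A2, COL3A1, PDGFRB and LUM of the first and VWF and CDH5 of the second were on none, while the endothelial gene PECAM1 was on 15. Of 5 leukocyte genes, CD68 was above background on all arrays, CD14 on 12 and CD3E on none. The summed levels on the linear scale ranged from 45590 at 0 h to 71590 at 9 h for the basal list and from 32270 at 45 h to 43120 at 21 h for the luminal list. They ranged from 372.9 to 428.5 for the fibroblast, from 788 to 1689 for the leukocyte and from 195.8 to 342.4 for the endothelial list, and the part of such shifts in the KLF values was not tested.

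Levels are given as log2 intensity after background correction and quantile normalization across the arrays, and differences are on the same scale. A row was tested when it was above background on at least 3 of 16 arrays, which kept 10 of the 11 KLF rows and 11957 rows in all. The untested row was a KLF10 probe, ILMN_13762, which was above background on 2 arrays (0 and 36 h) and lay between 5.51 and 6.16 with a median of 5.75. KLF3, KLF4, KLF5, both KLF6 rows and KLF13 were above background on all 16 arrays. KLF10 ILMN_2466 was so on 15, KLF2 and KLF7 on 10 each and KLF11 on 9. A smooth course over time (spline, limma, adjusted p under 0.05) was called in 7 of the 10 tested KLF rows, against 54.6% of all tested rows, so the share is close to the background. The adjusted p of the course was 0.000179 for KLF5, 0.00626 for KLF4, 0.0073 for KLF2, 0.00924 for KLF11, 0.0139 and 0.02 for the KLF6 rows and 0.0291 for KLF7. It was 0.0842 for KLF3, 0.0851 for KLF10 and 0.191 for KLF13. The median distance from the lowest to the highest array was 1.29 for the KLF rows and 0.91 for all tested rows.

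**Figure D1:**
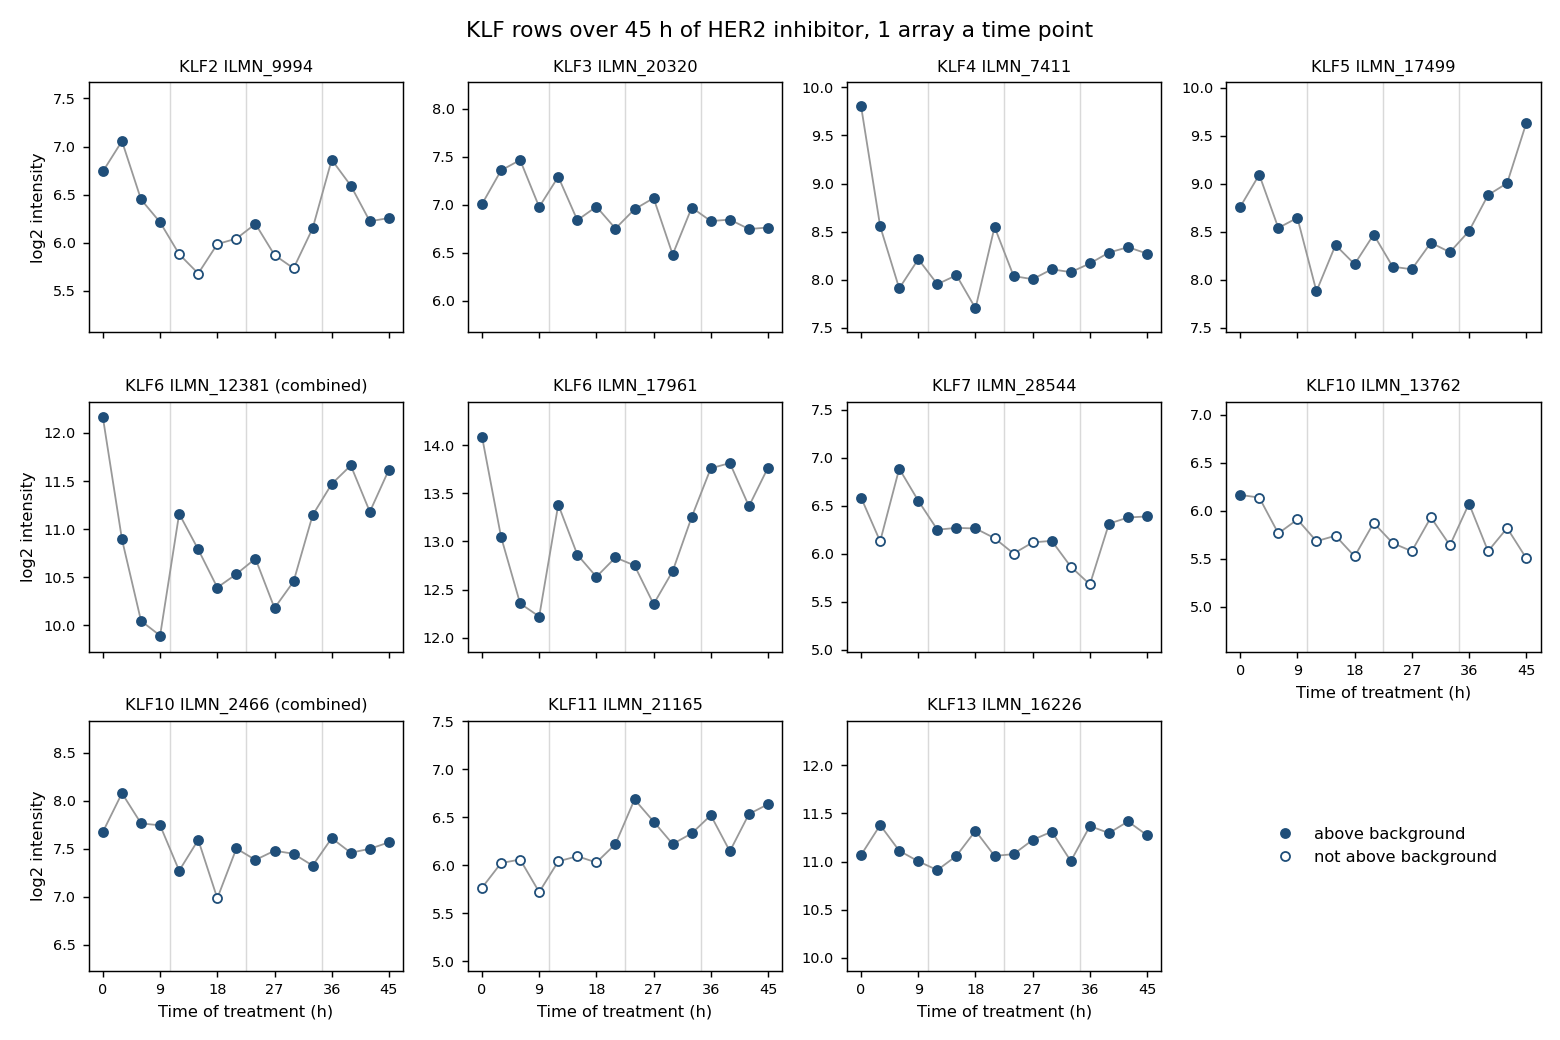
Log2 intensity (vertical axis, the same span in every panel) of the 11 KLF rows against hours of treatment, 1 point per array, filled where the row was above background. KLF4 and both KLF6 rows drop within 9 h, KLF6 is high again from 36 h, KLF5 climbs from 36 to 45 h, and KLF13 stays between 10.91 and 11.42. Grey lines part the 4 windows of 4 time points.

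Time points were compared in windows of 4 arrays, 0 to 9 h, 12 to 21 h, 24 to 33 h and 36 to 45 h, called the first, the second, the third and the fourth window, and within the first window 6 and 9 h were compared with 0 and 3 h. The arrays of a window are separate cultures at successive times and not replicates, so that their spread contains any change within the window. In the early comparison 4 KLF rows of 3 genes fell (KLF2, KLF4 and both of KLF6) and none rose, while 11.5% of all tested rows fell and 13.2% rose. The median difference of the 10 KLF rows was -0.25 and that of all tested rows -0.01. From the first to the second window 3 rows fell (KLF2, KLF5 and KLF10) and none rose, against 14.4% of all rows that fell and 15.1% that rose. From the second to the third window no KLF row was called, and by limma 0.0251% of all rows fell and none rose. At an unadjusted p under 0.05, 1 of the 10 KLF rows (KLF11) and 585 of all rows passed there. From the third to the fourth window 3 rows rose (KLF2, KLF5 and KLF6 ILMN_17961) and none fell, against 19.3% of all rows that rose and 18.7% that fell. Between the first and the fourth window only KLF11 was called and it rose, against 16.2% of all rows that rose and 15% that fell.

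**Figure D2:**
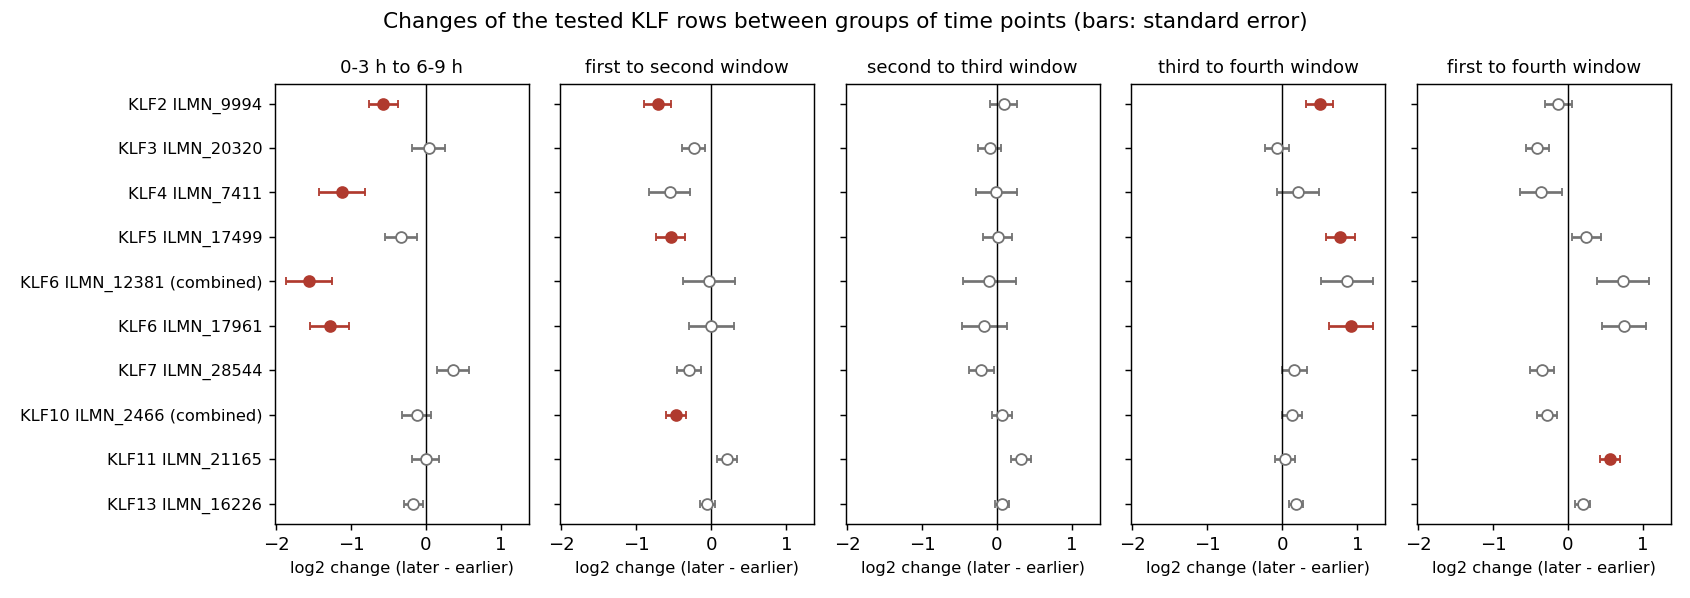
Log2 change (horizontal axis, later minus earlier, with the standard error of the limma fit as bars) of the 10 tested KLF rows in 5 comparisons of time points. Filled red points have an adjusted p under 0.05. The 4 red points of the early comparison lie left of 0 and the 3 of the step from the third to the fourth window lie right of it.

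Among the activators, KLF4 stood at its highest level in the untreated culture. Its log2 intensity was 9.80 at 0 h and 8.55 at 3 h, then 7.91 at 6 h and 8.21 at 9 h. The arrays of 6 and 9 h lay below those of 0 and 3 h without overlap, and the fall was 2.17-fold (log2 difference -1.12, SE 0.30, adjusted p = 0.0117). In RNA from whole cultures, fewer cells with a transcript and less of it per cell cannot be told apart. Afterwards KLF4 read 7.95, 8.05, 7.70 and 8.55 in the second window, 8.04, 8.01, 8.11 and 8.08 in the third, and 8.17, 8.28, 8.34 and 8.27 in the fourth. The level thus stayed low to 45 h, and only the array of 21 h came close to that of 3 h. All 15 later arrays were at least 1.7-fold below 0 h, and the lowest, at 18 h, was 4.29-fold below it. The fourth window did not pass the test against the first (difference -0.36, SE 0.28, adjusted p = 0.354), while 42 and 45 h against 0 and 3 h did (-0.87, adjusted p = 0.0365). The KLF4 results rested largely on 1 untreated array: without the 0 h array the early difference was -0.49 (adjusted p = 0.197), that from the first to the fourth window was 0.039 and the course had an adjusted p of 0.441. Without the 3 h array the early difference was -1.74, and without the 6 h array -0.97 (adjusted p = 0.0748). With only the compared arrays in the fit the early call was lost as well (-1.12, adjusted p = 0.122).

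KLF5 followed another order. It read 8.76, 9.09, 8.54 and 8.64 in the first window and 7.88, 8.36, 8.16 and 8.47 in the second, below the first in every array. This difference was -0.54 (SE 0.19, adjusted p = 0.0432), or 1.45-fold. The third window was as low, at 8.14, 8.11, 8.39 and 8.29, and then the level climbed from 8.51 at 36 h through 8.88 at 39 h and 9.01 at 42 h to 9.63 at 45 h. The rise from the third to the fourth window was 1.71-fold (0.78, SE 0.19, adjusted p = 0.00407), and the 4 late arrays lay above all 8 arrays from 12 to 33 h. The highest level, at 45 h, was 3.36-fold above the lowest, at 12 h. The early difference of -0.33 (SE 0.21, adjusted p = 0.285) did not pass. The rise was called with any 1 array left out (0.57 to 0.94), whereas the fall to the second window was called without the 6, 9, 21, 36 or 45 h array but not without any other, with adjusted p values of 0.052 to 0.141 and differences of -0.43 to -0.59 where it was lost. That fall was also lost in 4 of 8 processing alternatives, without background correction (adjusted p = 0.0535), with median scaling (0.113), without the detection filter (0.0571) and with only the compared arrays in the fit (0.0545).

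KLF6 was measured by ILMN_17961, a single probe, and by ILMN_12381, a row that combines more than 1 probe. The rows followed each other across the 16 arrays (Pearson r = 0.989), and the SD of their difference was 0.11. They share the same RNA and arrays, so that they count as 1 gene. ILMN_17961 read 14.09 at 0 h, 13.05 at 3 h, 12.36 at 6 h and 12.22 at 9 h. ILMN_12381 read 12.16, 10.89, 10.05 and 9.89 at these times. Each array was lower than the one before it, and from 0 and 3 h to 6 and 9 h the single probe fell 2.43-fold (-1.28, SE 0.26, adjusted p = 0.00165) and the combined row 2.94-fold (-1.56, SE 0.30, adjusted p = 0.00119). Without the 0 h array these differences were -0.76 (adjusted p = 0.0202) and -0.92 (adjusted p = 0.0121), and they passed with each other array left out as well.

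KLF6 rose at 12 h, was lower again from 15 to 30 h, and rose once more from 33 h. At 12 h the single probe was at 13.38 and the combined row at 11.16, which is 1.16 and 1.27 above 9 h. Of all tested rows, 7.37% moved at least 1.7-fold at this step, and of the 9 genes KLF6 alone did, while KLF5 fell by 0.76, just inside that fold. Between 15 and 30 h the single probe lay between 12.35 and 12.86, and it then rose over 13.26 at 33 h to 13.76, 13.82, 13.37 and 13.77 in the fourth window. Every array of the fourth window was above every array of the third, and the rise was 1.89-fold for the single probe (0.92, SE 0.30, adjusted p = 0.0214). For the combined row the difference was 0.86 (SE 0.35, adjusted p = 0.0623) and did not pass. The call of the single probe was lost without the 27 h array (0.78, adjusted p = 0.0746), the 39 h array (0.87, adjusted p = 0.0539) or the 45 h array (0.89, adjusted p = 0.0514). The fourth window stayed below the 0 h array in both rows, and against the first window its difference was 0.75 (SE 0.30, adjusted p = 0.0641) and 0.73 (SE 0.35, adjusted p = 0.122).

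KLF2, which keeps endothelial cells and T cells quiescent, was measured near the limit of detection. It read 6.74, 7.06, 6.45 and 6.21 in the first window, and was not above background at any time of the second, with 5.88, 5.68, 5.98 and 6.04. The groups did not overlap, and the fall was at least 1.38-fold (measured difference -0.72, SE 0.18, adjusted p = 0.00617). Within the first window the difference of 6 and 9 h from 0 and 3 h was -0.57 (SE 0.20, adjusted p = 0.0432). Above background again at 24 and 33 h, KLF2 reached 6.86 at 36 h, 6.59 at 39 h, 6.22 at 42 h and 6.26 at 45 h, all above the third window. This rise was 0.50 (SE 0.18, adjusted p = 0.0375). Against the first window the fourth differed by -0.13 (SE 0.18, adjusted p = 0.617), or by 0.016 without the 3 h array, while 42 and 45 h lay 0.66 below 0 and 3 h (adjusted p = 0.0171). The fall to the second window passed in every alternative, although without background correction it measured -0.32. The early call was lost without the 3 h (-0.41) or 9 h array (-0.45) and, at -0.57 with adjusted p of 0.0503 to 0.053, without that of 12, 15, 18, 21, 42 or 45 h. It was also lost in 5 of 7 processing alternatives, without background correction (-0.24), with median scaling (-0.49) or cyclic loess (-0.49), without the detection filter (-0.57) and with only the compared arrays in the fit (-0.57), at adjusted p of 0.0683 to 0.178. The late call was lost without the 27 h (0.46), 30 h (0.41), 36 h (0.37) or 39 h array (0.46), and without the detection filter (adjusted p = 0.0531).

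KLF7, a close relative of KLF6 known from neurons, had no call between windows. It read 6.58, 6.13, 6.89 and 6.55 in the first window, of which the array of 3 h was not above background. The second window spanned 6.16 to 6.27, the third 5.87 to 6.13 and the fourth 5.68 to 6.39, with 3, 1 and 3 arrays above background. The windows overlapped except that the third lay below the second. Between the first and the fourth window the difference was -0.35 (SE 0.16, adjusted p = 0.115), and from 0 and 3 h to 6 and 9 h it was 0.36 (SE 0.21, adjusted p = 0.246). Its call as a time course was lost without the 0, 6, 33 or 36 h array, with adjusted p of 0.0546 to 0.072, and with a spline of 5 degrees of freedom (0.0684) or a straight line in time (0.214).

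Among the repressors, KLF3, which recruits CtBP, was highest at 6 h, at 7.47, and lowest at 30 h, at 6.48, with a median of 6.96. Its first window spanned 6.98 to 7.47 and the fourth 6.75 to 6.85. The fourth window was thus below the first in every array, but the difference of -0.40 (SE 0.15) had an adjusted p of 0.0547. KLF13, an activator of RANTES in T cells that also binds SIN3A, was the steadiest member, from 10.91 at 12 h to 11.42 at 42 h around a median of 11.17, which is 1.42-fold from lowest to highest.

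The TGF-beta early genes went different ways. KLF10 ILMN_2466, a combined row, read 7.68, 8.08, 7.76 and 7.74 in the first window and 7.27, 7.59, 6.98 and 7.50 in the second, without overlap. The fall was 1.39-fold (-0.48, SE 0.13, adjusted p = 0.0117), and the 18 h array, its lowest, was not above background. Thereafter it stayed between 7.33 and 7.61, and the fourth window lay 0.28 below the first (SE 0.13, adjusted p = 0.117). KLF11 was not above background on any array from 0 to 18 h, where it read 5.72 to 6.09, and was above it on all 9 arrays from 21 h on, at 6.15 to 6.68. From the first to the fourth window it rose at least 1.25-fold (measured difference 0.57, SE 0.13, adjusted p = 0.00328), the first at 5.77, 6.02, 6.06 and 5.72 and the fourth at 6.52, 6.15, 6.53 and 6.63. The level rose by 0.46 between the arrays of 21 and 24 h. When the whole change from the second to the third window (0.33) was taken out, the difference was 0.24 (adjusted p = 0.445). The step between the arrays of 21 and 24 h alone was not tested. The labels name no chip or scan on which the arrays up to 21 h and from 24 h on could differ. The background itself was lower from 24 h on. KLF11 had a deposited intensity of 238.61 at 6 h, not above background, and of 218.35 at 39 h, above it. The control means of these arrays were 193.7 and 176.4. How far the lower background set which KLF11 arrays were above it was not tested. The KLF10 fall was lost with only the compared arrays in the fit (-0.48, adjusted p = 0.0778) and measured -0.25 without background correction, where it passed.

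Counted against the 0 h array alone and with no test, 7 of the 10 rows were at least 1.7-fold away at 1 or more later times, against 43.8% of all tested rows. KLF4 was lower at 15 of 15 later times, KLF6 at 10 (single probe) and 12 (combined row). KLF5 was 1.84-fold lower at 12 h and 1.83-fold higher at 45 h. The counts of the other 3 genes rested on arrays not above background: KLF2 lower at 4 times, KLF7 lower at 36 h, and KLF11 higher at 3 times than a 0 h array that was not above background itself. From lowest to highest array the fold was 4.82 and 3.66 for the combined row and the single probe of KLF6, 4.29 for KLF4, 3.36 for KLF5 and 1.98 for KLF3. With a lowest array not above background, it was at least 1.92 for KLF2, at least 1.76 for KLF7 and at least 1.44 for KLF11. It measured 2.13 for the combined row of KLF10. The lowest array of that row was not above background by its p-value, but read 6.98 where the lowest detected signal was 6.19. The large steps fell at few times. Between 0 and 3 h KLF4 fell by 1.25 and KLF6 by 1.04 and 1.27, a step at which 5.36% of all rows moved 1.7-fold or more. Between 3 and 6 h the combined row of KLF6 fell by 0.85 more, and 7.49% of all rows moved 1.7-fold or more. Between 18 and 21 h KLF4 rose by 0.85, and 1.05% of all rows moved as much as 1.7-fold. No KLF row did so between 33 and 36 h, where 6.4% of all rows did.

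Over the 16 arrays the genes whose course was most like that of KLF6 were RALGDS (r = 0.963) and YTHDC1 (r = 0.956). For KLF4 they were BLOC1S2 (r = 0.923) and CXCL2 (r = 0.896), for KLF5 ACAT1 (r = 0.932) and COP1 (r = 0.924), and for KLF13 KIAA0804 (r = 0.874) and SH3PXD2B (r = 0.865). They are the highest correlations among all tested rows over the same time series, and are a description. Between the members themselves, r was 0.55 for KLF4 with KLF6, 0.40 for KLF4 with KLF5, 0.60 for KLF2 with KLF10 and -0.23 for KLF10 with KLF11.

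The rest of the KLF and SP family had 16 of 17 symbols on the array and 10 tested rows. An untested row is not always a low one: SP3 ILMN_15110 read 7.98 to 8.66 but was above background on no array by its p-value. In the early comparison 4 of them fell and 1 rose, beside the 11.5% of all rows that fell and the 13.2% that rose. Their median was -0.37 (-0.01 over all tested rows). KLF12 (-0.75, SE 0.25, adjusted p = 0.0362), a CtBP-binding repressor like KLF3, and SP4 (-0.75, SE 0.25, adjusted p = 0.0391) fell. KLF9 (-0.65, SE 0.21, adjusted p = 0.0303), a glucocorticoid and thyroid hormone target, fell as did SP1, and SP8 rose (0.72, SE 0.24, adjusted p = 0.0378). The tested SP8 row was above background on 9 of 16 arrays and not at 0 h. KLF12 was not above background at 9 h, nor SP4 at 6 h, so the background limits these 3 changes. From the third to the fourth window 4 rose and 1 fell, beside the 19.3% of all rows that rose and the 18.7% that fell. KLF9 read 11.22, 11.26, 11.56 and 11.98 in the third and 12.43, 12.55, 12.51 and 12.68 in the fourth window, a rise of 1.04 (SE 0.20, adjusted p = 0.00055). KLF12 rose by 0.70 (SE 0.23, adjusted p = 0.0216) and SP4 fell by 0.56 (SE 0.21, adjusted p = 0.0469), while KLF8, not above background in the third window, rose at least 1.14-fold (adjusted p = 0.00248). Against the first window the fourth was 1.48 higher for KLF9 (adjusted p = 2.82e-05) and 1.20 higher for KLF12 (adjusted p = 0.000686). In all, 4 rows had risen and 2 fallen, beside the 16.2% of all rows that rose and the 15% that fell. The first window contained the early falls of KLF9 and KLF12, which read 11.75 and 7.16 at 0 h. In the fourth window KLF12 read 7.35, 7.38, 7.82 and 7.90. From the first to the second window only SP8 was called and it fell by 0.79 (adjusted p = 0.0109). In the second window it was above background at 15 h alone. Of all rows 14.4% fell and 15.1% rose there.

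**Figure D3:**
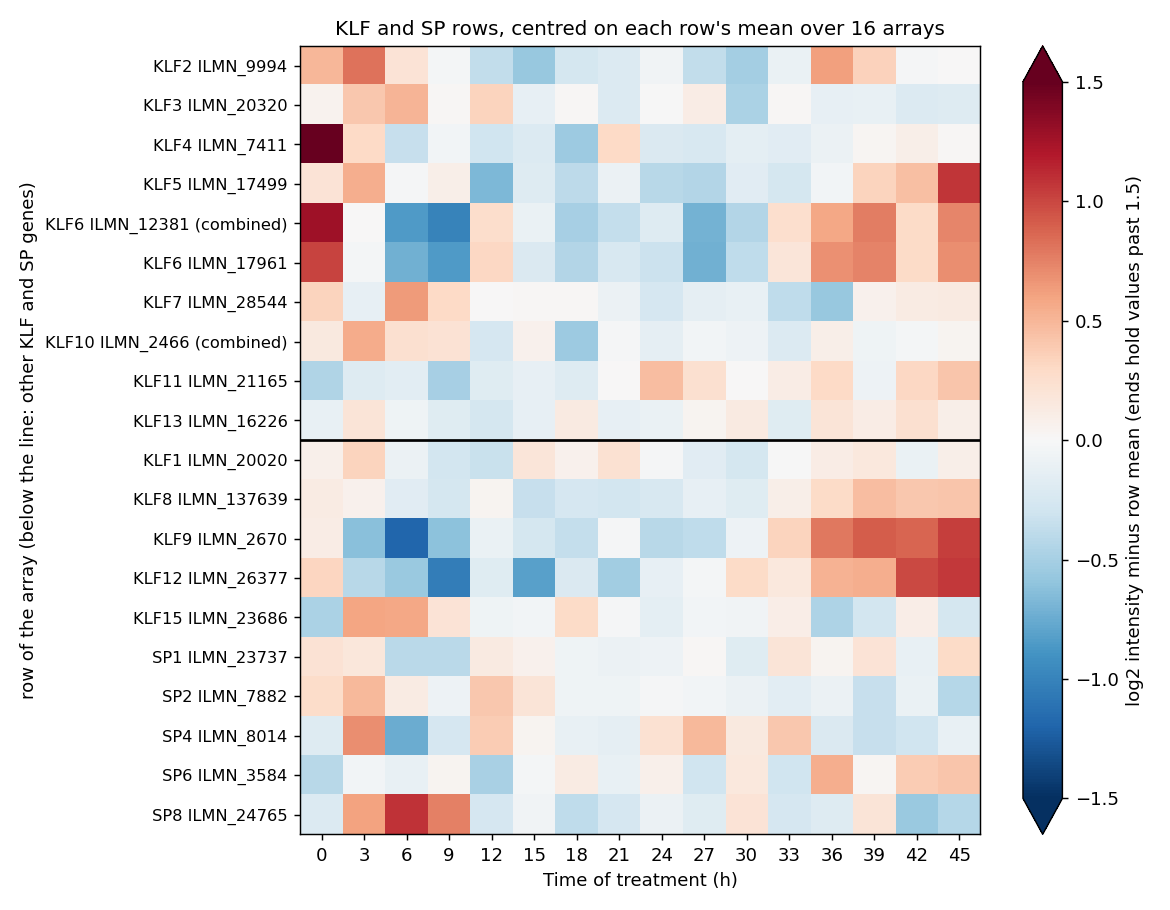
Log2 intensity minus each row's own mean (colour) for the 10 tested KLF rows and, below the line, the 10 tested rows of other KLF and SP genes, by hours of treatment. KLF6, KLF9 and KLF12 are blue at 6 and 9 h and red in the fourth window, while KLF4 is dark red at 0 h alone.

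Genes that act on KLF proteins or lie on routes to KLF genes were read from lists. Of 13 tested rows of cofactors, 2 fell early, close to the share of all rows that fell (11.5%). They were SAP30 (-0.68, adjusted p = 0.000142), a SIN3A complex subunit, and the acetyltransferase CREBBP (-0.68, adjusted p = 0.000421). From the third to the fourth window PCAF, an acetyltransferase, rose by 0.73 (adjusted p = 0.0011) and SIN3B by 0.61 (adjusted p = 0.00917), and SAP30 fell by 0.60 (adjusted p = 0.00271) and HDAC2 by 0.18 (adjusted p = 0.0313). Of 12 tested rows of E3 ligases and deubiquitinases, 5 fell early and 1 rose, beside the 11.5% of all rows that fell and the 13.2% that rose. The ligase subunit FBXO32 fell in both its rows, by 3.4 (adjusted p = 1.2e-05) and 0.50 (adjusted p = 0.0254). The ligase SMURF1 fell by 0.90 (adjusted p = 0.0055) and the deubiquitinase USP10 rose by 0.65 (adjusted p = 0.017). Both FBXO32 rows rose from the third to the fourth window, ILMN_3809 by 3.28 (adjusted p = 0.000756) and ILMN_20035 by 1.08 (adjusted p = 0.000755). Against the first window they differed in sign. There the fourth window of ILMN_3809 was 2.15 higher (adjusted p = 0.0188) and that of ILMN_20035 lower (difference -1.60, adjusted p = 2.97e-05). ILMN_20035 had changed by -2.94 from the first to the second window (adjusted p = 1.96e-07).

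On the MEK5-ERK5-MEF2 route, 2 of 8 tested rows fell early, beside the 11.5% of all rows that fell. They were MEF2D (-0.98, SE 0.12, adjusted p = 1.84e-05) and the kinase MAP3K2 (-0.66, SE 0.20, adjusted p = 0.021). The median of the 8 rows was -0.35. MAP2K5, which encodes MEK5, rose in 1 of its rows from the third to the fourth window by 0.79 (adjusted p = 0.000202). ERK5 itself, listed as MAPK7, had 1 tested row and no call in any comparison. On the TGF-beta route 1 of 8 tested rows fell early, close to the share of all rows that fell (11.5%). This was the corepressor TGIF in its row above background on all arrays (-0.68, SE 0.10, adjusted p = 0.000135). The same row rose by 0.44 (adjusted p = 0.015) from the third to the fourth window. No SMAD row was called in these comparisons. Of 26 tested rows of genes reported as KLF targets, 6 rose and 4 fell early, beside 13.2% and 11.5% of all rows. The median of the 26 rows was -0.01. TXNIP fell by 1.48 (adjusted p = 9.74e-06) and the amine oxidase MAOA by 1.04 (adjusted p = 0.00151). The cornified envelope gene SPRR2A rose by 1.39 (adjusted p = 0.0159) and the cyclin CCND1 by 1.28 (adjusted p = 2.84e-06). From the third to the fourth window 10 rose and 7 fell, beside the 19.3% of all rows that rose and the 18.7% that fell. TXNIP rose by 2.06 (adjusted p = 5.46e-05), MAOA by 1.84 (adjusted p = 1.7e-05) and the cell cycle inhibitor CDKN1C by 1.35 (adjusted p = 0.00114), and the mitotic cyclin CCNB1 fell by 1.18 (adjusted p = 3.7e-06). These targets were collected from many cell types, and their list holds genes that KLF proteins raise and genes that they lower.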

How the data were processed

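The data are 1 Illumina Ref8v2 array for each of 16 cultures of MCF10A cells. The deposited table holds a linear intensity, not normalized, and a detection p-value per row, as exported by the authors; the software version is not given in the sources used here. Detection p-values of 19092 rows are whole steps of 1 in 708 (tolerance 0.001), the rank among negative controls; the other 1497 rows were taken to combine several probes, where the detection p does not rank the printed signal. The control mean (166 to 199 per array) and SD (35.4 to 44.0) were inferred from these p-values, then normexp background correction with an offset of 16, quantile normalization, as in the authors' methods, and log2 were applied (limma 3.58.1, R 4.3.3; figures, Matplotlib 3.10.9). The array number limits the precision, and p-values measure only the spread among time points. limma with a variance trend tested a spline of 3 degrees of freedom, 4 windows and 8 pairs of time points, with Benjamini-Hochberg adjustment over 11957 rows. A group with no array above background was set to the lowest detected signal of each array ("at least"). The 1.7-fold limit is the study's. Named were all rows of the 9 genes, the 2 genes most alike to each member detected on all arrays (those of KLF3 are not reported here), and up to 4 called genes per list and comparison with the largest changes, plus SP1; the untested and uncalled genes named were chosen after their values were seen. Members and lists were chosen with earlier results of these data known. Gene symbols are the table's own. The scripts were tested on simulated data. Alternatives covered background correction, scaling, filter, fit and leaving out each array.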

Additional observations from a re-analysis of the deposited data

Results flagged for a closer look

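Within windows of 4 arrays, the highest or lowest array was compared with its nearest neighbour relative to the whole range, and 2 of 40 windows of the tested KLF rows had an array that stood apart, while chance gives about 1 in 20. The KLF6 probe ILMN_17961 read 13.37 at 42 h, below the other arrays of the fourth window. The KLF7 probe ILMN_28544 read 5.68 at 36 h, below the others of the same window and not above background. The arrays of a window are different times and not replicates.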

How the results depend on the processing

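Of 10 KLF rows, 7 had a called course. It was 4 with the 6 rows above background on all 16 arrays alone, where fewer rows are tested, and 2 with a straight line in time (1953 against 6533 of all rows), and 6 to 7 with 1 array left out. From the first to the second window 3 changed, but 1 with only rows detected on all arrays and 1 with only the compared arrays in the fit (2178 against 3527 of all rows), and 2 to 4 with 1 array left out. From the second to the third window 0 changed throughout, while of all rows 3 were called as reported, 11 with median scaling, 1 without the variance trend, 2 with cyclic loess or rows detected on all arrays and 12 with only the compared arrays. From the third to the fourth window 3 changed, 5 with only the compared arrays, and 1 to 4 with 1 array left out (1 without 27 or 39 h). From the first to the fourth window 1 changed, but 3 with median scaling, 2 without the variance trend and 3 for 42 and 45 h against 0 and 3 h. It was 0 without the change from the second to the third window (1617 against 3730 of all rows). With only the compared arrays in the fit 2475 of all rows were called. With 1 array left out it was 1 to 4 KLF rows (4 without 0 h, 3 without 3 h, 2 without 9, 12 or 30 h). Early, 4 changed, 2 with only the compared arrays (882 against 2957 of all rows), and 3 to 4 with 1 array left out. At least 1.7-fold from 0 h were 7, but 3 without background correction (2187 against 5234 of all rows), 4 with an offset of 50, 4 with rows detected on all arrays, 4 at 2-fold (2947 of all rows) and 6 to 7 with a later array left out; without the 0 h array this count has no value. For 42 and 45 h against 0 and 3 h the KLF6 differences were -0.13 (ILMN_12381) and -0.0012 (ILMN_17961), turned from the window values. Leaving out 1 array, the first-to-fourth-window difference ranged from -0.59 to 0.039 for KLF4 and from -0.27 to 0.016 for KLF2. Under median scaling the rows called higher and lower were 2805 and 1030 from the first to the second window (1807 and 1720 as reported), 1719 and 2933 from the third to the fourth (2309 and 2233), 2793 and 1029 from the first to the fourth (1932 and 1798) and 1794 and 1007 early (1583 and 1374). Other causes of these shifts were not tested. For KLF2, KLF7 and KLF11 the background sets a floor on how low a level can be read. No paired analysis was possible because each time point has 1 array and no replicate number is shared between cultures.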
